A study of Mus musculus with 28 samples.

Results

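The 39 mouse Hox genes were examined for peaks of 3 chromatin proteins in mature olfactory sensory neurons. They are every gene of the RefSeq table (assembly GRCm38.p6) whose symbol is Hox followed by a, b, c or d and a number, out of 21779 protein-coding genes on chromosomes 1 to 19, X and Y. They form 4 clusters. Hoxa holds 11 genes on chromosome 6 (52155367 to 52260880), read from the minus strand. Hoxb holds 10 genes on chromosome 11 (96194316 to 96368254), Hoxc 9 genes on chromosome 15 (102921131 to 103036856) and Hoxd 9 genes on chromosome 2 (74668225 to 74765142), all read from the plus strand. Peaks were counted in each cluster and in the 100 kb on either side, the Hox windows, and a peak was counted once however many genes lay near it.

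Hox genes encode homeodomain transcription factors that give body segments their identity along the head-to-tail axis. Within a cluster all genes are transcribed in 1 direction, and their order along the chromosome follows the order in which they are used along the body, from the 3′ genes (anterior) to the 5′ genes (posterior). Genes of the same number in different clusters are paralogs. In cells that do not use them the clusters are typically covered by Polycomb repression. CTCF is a zinc-finger protein that binds DNA and marks domain boundaries, including boundaries inside Hox clusters that separate active anterior from repressed posterior genes in embryonic cells. Rad21 is a subunit of cohesin, the ring complex that extrudes chromatin loops and stalls at CTCF. Ldb1 is an adaptor protein without a DNA-binding domain, and LIM-homeodomain factors, of which Lhx2 is one, recruit it to their sites.

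The series holds 28 samples, of which the 11 chromatin immunoprecipitation libraries with a peak list were used. Ldb1 was mapped in 2 libraries of Lhx2 knockout (KO) neurons (OMP-IRES-Cre together with the alleles Lhx2fl/fl and Rosa-CAG-tdtom+/fl), where Cre is driven by Omp, a gene of mature neurons, so that Lhx2 is removed only once the neuron matures. It was mapped in 2 libraries of cells positive for the receptor Olfr1507 (M28-IRES-GFP) and in 3 libraries of control neurons (OMP-IRES-GFP). Rad21 and CTCF were mapped in 2 libraries each of the same OMP-IRES-GFP control neurons. The labels of these libraries give no age and do not state whether replicates were taken from different animals. The p-values over libraries therefore measure only how far these libraries spread, and that spread may be technical. A peak list holds no expression values, so Hox transcription, the loss of Lhx2 and cell identity were not analysed here.

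The lists held 4290 and 542 peaks for Ldb1 in Lhx2 KO neurons, 5095 and 21250 in Olfr1507 cells, and 24877, 28879 and 16067 in control neurons. Rad21 had 10487 and 28151 peaks and CTCF 27609 and 34210. Sequencing depth is unknown, since no read numbers come with the lists, and a short list can miss sites that a long one holds. In the text a region is a set of overlapping peaks found in at least 2 libraries of a group. The strength of a peak is given as its percentile, the rank of the authors' score within its own list, where 100 is the strongest peak. Percentiles from lists of different length rank different numbers of peaks and are not levels of binding.

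Inside the Hox clusters the neurons carried CTCF and cohesin but almost no Ldb1. The 4 clusters span 0.492 Mb and held 1 control Ldb1 region, 8 Rad21 regions and 20 CTCF regions. No Ldb1 region of Lhx2 KO neurons or of Olfr1507 cells lay inside a cluster. Over the whole genome these groups had only 0.148 and 1.88 regions per Mb, so a count of 0 in 0.492 Mb says little. In regions per Mb, control Ldb1 had 2.03 inside the clusters and 8.61 over the whole genome. Rad21 had 16.3 per Mb inside the clusters and 3.73 over the genome, a 4.36-fold ratio. CTCF had 40.6 per Mb inside the clusters and 9.40 over the genome, a 4.33-fold ratio. The genome includes long stretches without genes, so a background of intervals between genes is given further on. For comparison, the 43 clusters of odorant receptor genes held 3.04 control Ldb1, 0.601 Rad21 and 1.50 CTCF regions per Mb, and the clustered protocadherin genes, the other well-known neuronal family with CTCF sites, held 6.58, 5.48 and 16.5.

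**Figure D1:**
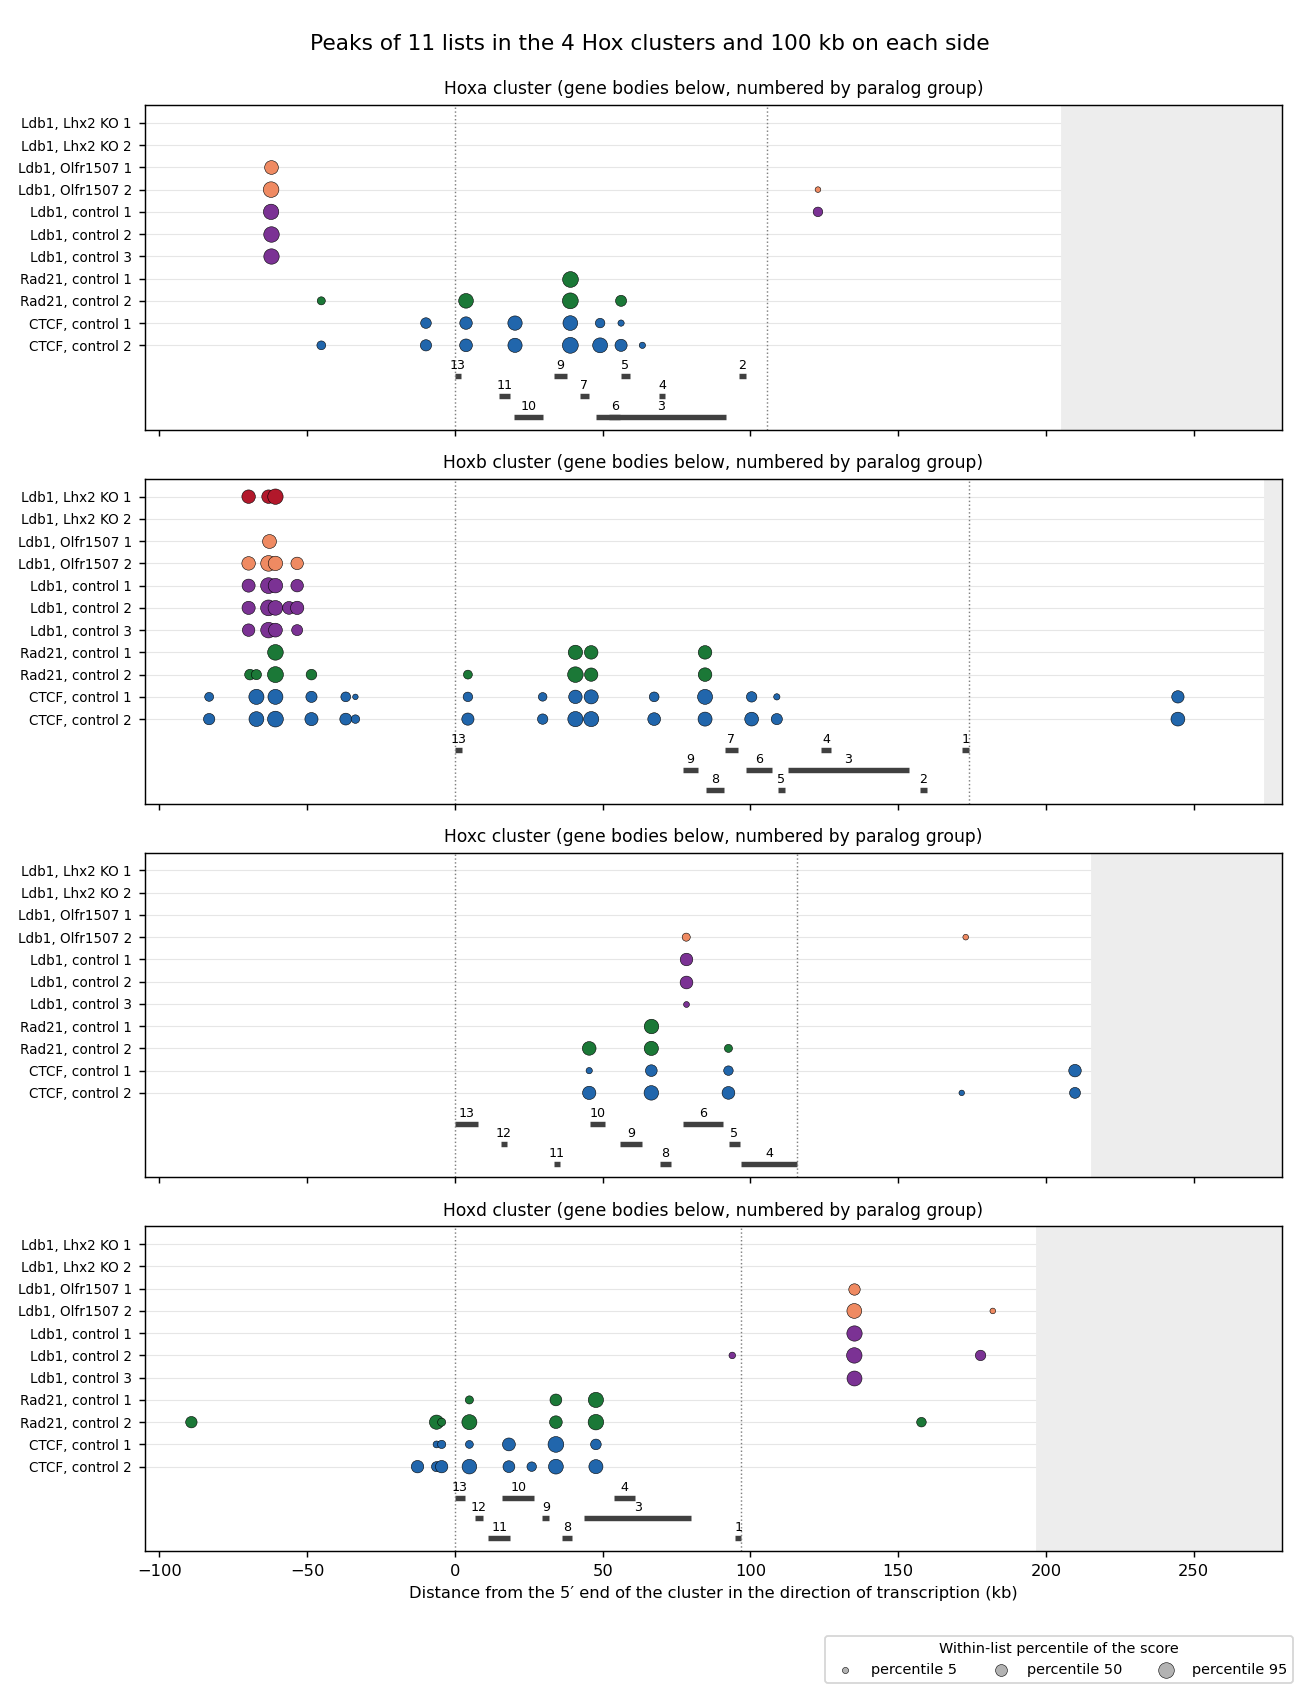
Each circle is a peak of 1 library, placed by its distance in kb from the 5′ end of its cluster in the direction of transcription, with 1 row per library and the area growing with the percentile of the peak's score within its list. Gene bodies, of which 1 is not drawn, lie below with their paralog numbers, dotted lines mark the cluster ends, and grey areas lie outside the 100 kb flank. In Hoxa, Hoxb and Hoxd the Rad21 and CTCF circles inside the cluster lie on the 5′ side of the group 4 gene, in Hoxc they start only near Hoxc10, and most Ldb1 circles lie outside the dotted lines.

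The 4 clusters differed in how many CTCF regions they held. Hoxa had 5 (47.4 per Mb), Hoxb 8 (46.0 per Mb), Hoxc 3 (25.9 per Mb) and Hoxd 4 (41.3 per Mb). The first and second CTCF libraries had 5 and 6 peaks in Hoxa, 8 and 8 in Hoxb, 3 and 3 in Hoxc, and 4 and 5 in Hoxd. The libraries thus placed nearly the same number of peaks in every cluster, and the 2 extra peaks of the second library lay between the 3′ ends of Hoxa5 and Hoxa4 and in Hoxd10. Rad21 regions numbered 1 in Hoxa, 3 in Hoxb, 1 in Hoxc and 3 in Hoxd. The first Rad21 library had 1, 3, 1 and 3 peaks in Hoxa, Hoxb, Hoxc and Hoxd, and the second had 3, 4, 3 and 3. Every peak of the first, shorter Rad21 list inside the clusters was also in the second list. Neighbouring CTCF regions inside a cluster lay a median of 15.8 kb apart, from 5.34 to 26.1 kb (16 spacings), against a median of 35.0 kb over the genome.

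Positions between genes were set by the 3′ ends of neighbouring Hox genes, because long transcripts of Hoxa3, Hoxb3 and Hoxd3 run across other genes. Of the 35 intervals so defined, 16 held a CTCF region (5 of 10 in Hoxa, 4 of 9 in Hoxb, 3 of 8 in Hoxc, 4 of 8 in Hoxd). Over the genome, intervals between neighbouring genes of 1 strand and of the same range of lengths held a CTCF region in 41.5% of cases. The Hox share was thus near this background. It was built from the 17509 protein-coding genes with a strand on record, so genes left out can lie between its neighbours. A Rad21 region lay in 7 of the 35 intervals, against 20.3% over the genome, and a control Ldb1 region in 1, against 24.2%. No interval held a Ldb1 region of Lhx2 KO neurons (0.831% over the genome) or of Olfr1507 cells (5.45%). Hox intervals are short, with a median of 10.8 kb against 28.2 kb for these background intervals. Among intervals under 20 kb, a limit chosen after seeing these lengths, 14 of 31 Hox intervals held a CTCF region, against 30.6% over the genome. In the same short intervals the count was 0 of 31 for Lhx2 KO Ldb1 (0.342%) and for Olfr1507 Ldb1 (1.76%), 5 of 31 held a Rad21 region, against 12.4%, and 1 of 31 held a control Ldb1 region, against 14.1%. In gaps between merged gene bodies, the counts were 0 of 29 for Ldb1 in Lhx2 KO neurons (0.56% over the genome), in Olfr1507 cells (3.38%) and in control neurons (16.5%), 6 for Rad21 (16.0%) and 10 for CTCF (31.1%).

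The boundary 3′ of the group 9 gene held a CTCF region in all 4 clusters. Boundary here means an interval between 3′ ends, and insulation was not measured. The interval that starts at the 3′ end of Hoxa9, Hoxb9, Hoxc9 or Hoxd9 held 1 CTCF region in each cluster, and each of these 4 regions had a Rad21 peak in both Rad21 libraries. The group 9 genes are the first of the posterior Hox genes counted from the 3′ side, related to fly Abd-B. This boundary was singled out after the values were seen. Of all 35 Hox intervals, 16 held a CTCF region and 7 a Rad21 region.

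At Hoxa9 to Hoxa7 the site lay on chromosome 6 from 52221644 to 52222014. Its Rad21 percentiles were 97.5 and 98.7 and its CTCF percentiles 83.6 and 99.2 in the first and second libraries. It was the strongest Rad21 site inside the Hox clusters in both Rad21 libraries. At Hoxb9 to Hoxb8 (chromosome 11, 96278766 to 96279140) Rad21 stood at 68.8 and 69.4 and CTCF at 86.9 and 74.8. At Hoxc9 to Hoxc8 (chromosome 15, 102987405 to 102987767) Rad21 stood at 80.8 and 77.2 and CTCF at 48.6 and 80.7. Apart from the 48.6 of the first CTCF library, these Hoxb and Hoxc values ran from 68.8 to 86.9. At Hoxd9 to Hoxd8 (chromosome 2, 74702208 to 74702579) Rad21 stood at 49.9 and 59.2 and CTCF at 96.9 and 84.5, the highest percentile of the first CTCF library in any Hox window. The same paralog position thus held sites of different rank in the 4 clusters.

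**Figure D2:**
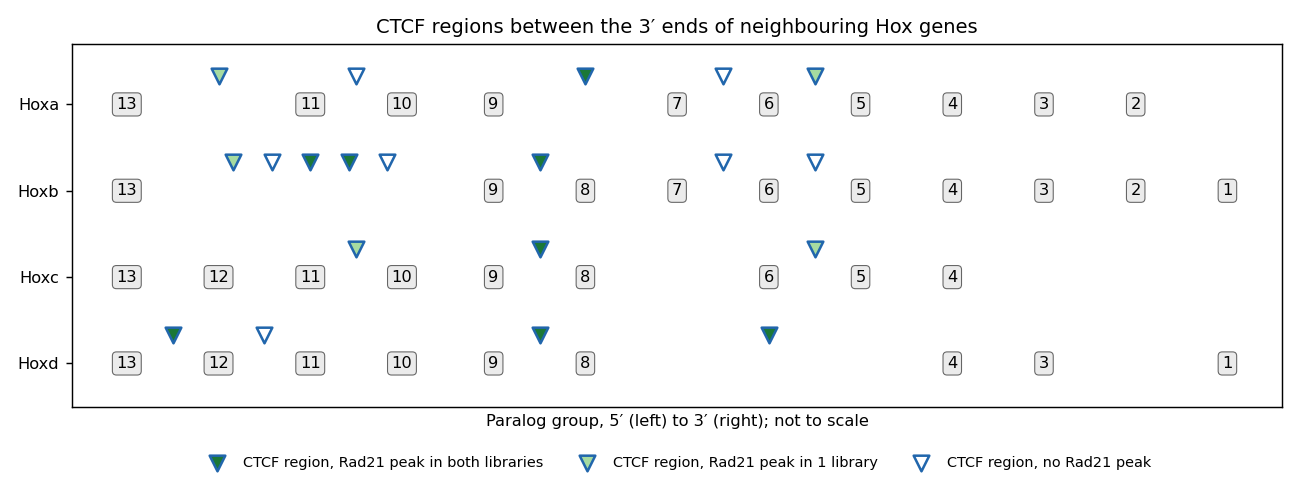
Triangles are CTCF regions drawn between the Hox genes, which except for 1 are written by paralog number from 5′ (left) to 3′ (right) and not to scale, with 1 row per cluster. Each triangle stands between the genes whose 3′ ends bound its interval, and some of these regions lie in a gene body. Dark green means a Rad21 peak in both libraries, light green in 1 library and white in none. All 4 clusters have a dark triangle after gene 9, and none has a triangle to the right of gene 4.

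The boundary between the group 6 and group 5 genes held a CTCF region in the 3 clusters that have both genes. It too was singled out after the values were seen, and 16 of all 35 Hox intervals held a CTCF region. The group 5 genes belong to the middle set that patterns the neck and upper trunk. CTCF percentiles at these sites were lower than at the group 9 boundary in both libraries. At Hoxa6 to Hoxa5 (chromosome 6, 52204437 to 52204889) the second Rad21 library stood at 42.1 and the CTCF libraries at 5.84 and 53.4. At Hoxc6 to Hoxc5 (chromosome 15, 103013507 to 103013857) the second Rad21 library stood at 17.1 and CTCF at 28.2 and 59.8. At Hoxb6 to Hoxb5 (chromosome 11, 96303062 to 96303405) there was no Rad21 peak, and CTCF stood at 5.84 and 43.0. The first Rad21 library, the shorter one, had no peak at any of the 3 sites.

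The Hoxa5 site, with a peak of both CTCF libraries and of the second Rad21 library, was the only site of the 11 lists to overlap a Hox promoter with a RefSeq sequence, and its 300 bases are shown for that reason. The table holds 24 promoter windows for 22 of the 39 Hox genes, each running from 250 bases before to 50 bases after a transcription start. The window at chr6:52204538-52204837 (GRCm38.p6, minus strand) is written 5′ to 3′, and capitals mark the single match to a shortened CTCF core motif, CCNNNNGNNGGC.
Hoxa5: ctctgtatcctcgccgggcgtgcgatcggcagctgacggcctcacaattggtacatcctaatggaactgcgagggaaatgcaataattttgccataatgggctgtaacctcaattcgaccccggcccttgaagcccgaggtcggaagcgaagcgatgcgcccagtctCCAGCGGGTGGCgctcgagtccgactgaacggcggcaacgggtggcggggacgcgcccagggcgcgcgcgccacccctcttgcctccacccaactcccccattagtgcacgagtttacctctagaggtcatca

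The match starts at base 168 of the window on the strand shown. The stricter form CCNNNAGNNGGC, which fixes 1 base more, had no match in this window on either strand. The shortened form was chosen after that sequence had been seen. Over both strands the strict form was found in 4 of the 24 Hox windows and in 8.61% of all 32851 windows of the table. The shortened form was found in 10 of the 24 Hox windows and in 25.3% of all windows. Of all windows, 4.44% (1460) overlapped a CTCF region, and among those the strict form was found in 36.8% and the shortened form in 58.8%. A match of these letters is a description of the sequence and not a measured binding site.

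Hoxb had the longest interval, 80.0 kb between the 3′ ends of Hoxb13 and Hoxb9, where Hoxb10 to Hoxb12 do not exist. It held 5 of the 8 CTCF regions of that cluster. From the 5′ side, they started at 96198526, 96223835, 96234913, 96240253 and 96261563 on chromosome 11. The third and the fourth lay 5.34 kb apart, the closest pair inside any Hox cluster, and both had Rad21 in both libraries. The third stood at 78.3 and 94.9 for Rad21 and at 68.0 and 90.0 for CTCF. The fourth stood at 68.8 and 66.6 for Rad21 and at 75.7 and 88.5 for CTCF. The other 3 regions had CTCF percentiles from 21.0 to 59.8, and the single Rad21 peak among them, at the first region, was at percentile 23.3. The pair in the middle was thus stronger in both CTCF lists than its neighbours in the interval. Hoxb13 is expressed in the tail and prostate and lies far from the rest of its cluster.

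Besides the site after Hoxd9, Hoxd held 2 CTCF regions near its 5′ end and 1 next to Hoxd4. The region between the 3′ ends of Hoxd13 and Hoxd12 (from 74672914) stood at 17.8 and 87.4 for Rad21 and at 15.8 and 82.0 for CTCF, so the libraries of each protein ranked it far apart. The region between the 3′ ends of Hoxd12 and Hoxd11 (from 74686324) lay in the bodies of Hoxd11 and Hoxd10. It had no Rad21 peak and stood at 61.5 and 50.1 for CTCF. The region between Hoxd8 and Hoxd4 (from 74715750) stood at 89.7 and 94.0 for Rad21 and at 38.2 and 75.3 for CTCF. It was the highest-ranked Rad21 site of Hoxd in both lists and the last CTCF region before the 3′ genes. Hoxd13 and Hoxd12 pattern the digits in the limb.

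The remaining Hoxa, Hoxb and Hoxc sites lay in single intervals, named here by the genes whose 3′ ends bound them. The Hoxa11 to Hoxa10 site lay in the body of Hoxa10 and the Hoxb7 to Hoxb6 site in that of Hoxb6. Between Hoxa13 and Hoxa11 CTCF stood at 57.0 and 59.8, with a peak of the second Rad21 library at 83.1. Between Hoxa11 and Hoxa10 CTCF stood at 78.6 and 77.1 and between Hoxa7 and Hoxa6 at 28.2 and 85.9, both without Rad21. Between Hoxb7 and Hoxb6 CTCF stood at 36.3 and 71.6, also without Rad21. Between Hoxc11 and Hoxc10 CTCF stood at 5.84 and 66.1, with the second Rad21 library at 70.7. The group 11 to group 10 boundary, set by 3′ ends, therefore had a CTCF region in Hoxa and Hoxc. In Hoxd it had a peak of the second CTCF library alone, at percentile 28.3. The Hoxd region from 74686324 lay in the bodies of Hoxd11 and Hoxd10. It fell in the preceding interval only because it ended before the 3′ end of Hoxd11.

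Rad21 lay at the Hox CTCF regions about as often as at CTCF regions elsewhere. Of the 20 CTCF regions inside the clusters, 8 (40.0%) had a Rad21 region, against 36.8% of the 24877 CTCF regions of the genome. The first Rad21 library alone gave the same 8 of 20, against 37.9%. A further 5 had a peak of the second Rad21 library alone, which gave 13 of 20 (65.0%) for that library, against 65.7% over the genome. The other 7 had no Rad21 peak. The mean CTCF percentile had a median of 79.9 (48.9 to 91.4) at the 8 regions with both Rad21 libraries, 41.2 (29.6 to 58.4) at the 5 with 1 library, and 54.0 (24.4 to 77.9) at the 7 with none. The same medians over the genome were 76.8, 54.0 and 36.6. In the Hox clusters and over the genome alike, the CTCF regions with both Rad21 libraries thus had the highest median. In the other direction, all 9 Rad21 regions of the Hox windows overlapped a CTCF region, against 92.5% over the genome. At the level of single lists, 9 of 9 window peaks of the first Rad21 library and 18 of 22 of the second lay at a CTCF region, against 90.0% and 58.0% over the genome.

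**Figure D3:**
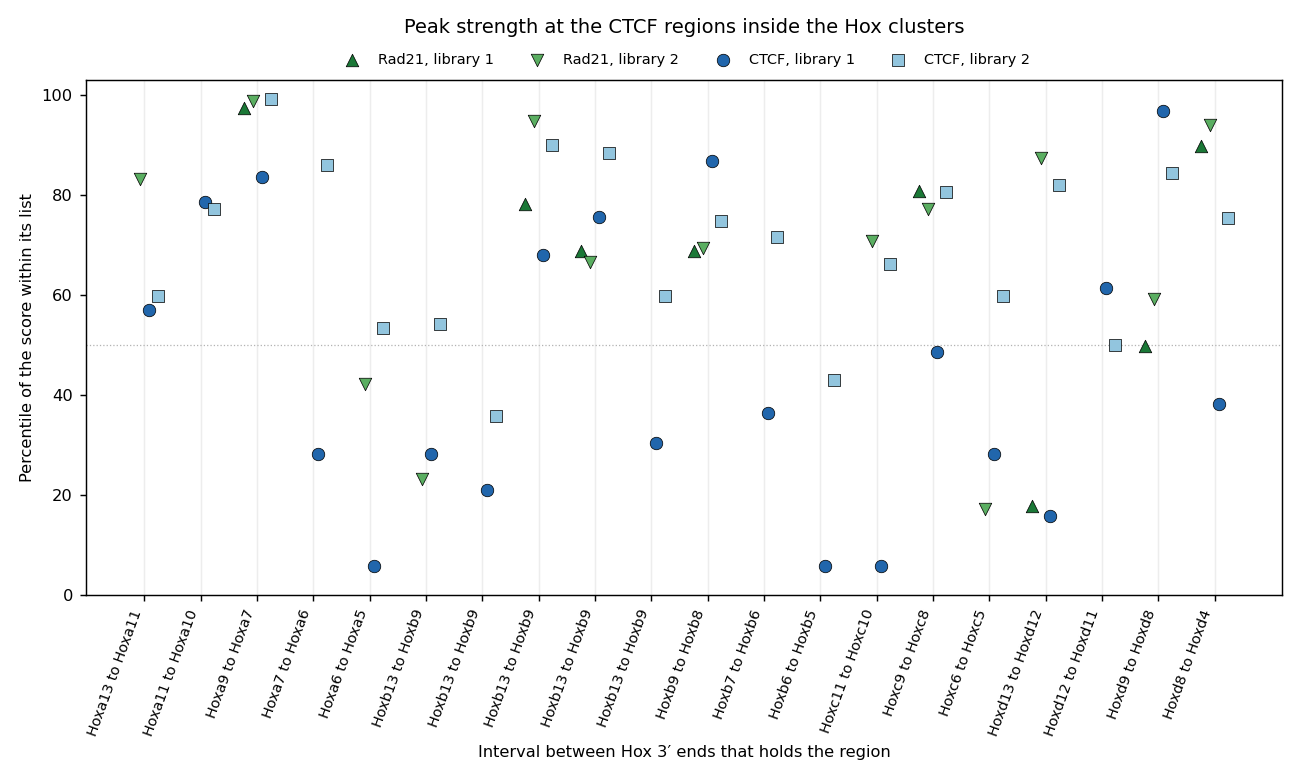
Each column is 1 of the 20 CTCF regions inside the Hox clusters, ordered from the 5′ to the 3′ end of Hoxa, Hoxb, Hoxc and Hoxd and named by the genes whose 3′ ends bound its interval. Symbols give the percentile of the peak's score within its own Rad21 or CTCF list, and a missing symbol means no peak. Rad21 symbols are missing from 7 columns, and the first Rad21 library appears in 8.

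The 3′, anterior ends of the clusters held no CTCF. In Hoxa, Hoxb and Hoxd, the 8 intervals on the 3′ side of the group 4 gene cover 117 kb and held no peak of either CTCF library and no Rad21 peak. The only peak of any list there was 1 peak of the second control Ldb1 library, 0.752 kb from Hoxd1 and at percentile 7.63. The other 27 intervals cover 359.8 kb and held all 20 CTCF regions and all 8 Rad21 regions. The anterior genes at this end, such as Hoxb1 and Hoxb2, pattern the hindbrain. The split at the group 4 gene was chosen after the sites had been seen, and no test was made of it.

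The stretches without a CTCF region ran on past the clusters. The spacing between CTCF regions that spans the gene at the 3′ end was 135.7 kb at Hoxb1, 117.3 kb at Hoxc4 and 248.7 kb at Hoxd1. Spacings of 117.3 kb or more made up 18.9% of all 24856 spacings over the genome, and those at least as long as the Hoxd one made up 8.10%. Such spacings are therefore not rare. The Hoxb stretch, with all of Hoxb5, Hoxb4, Hoxb3, Hoxb2 and Hoxb1 in it, held no peak of any of the 11 lists. The Hoxd stretch held 14 peaks, of which 8 were control Ldb1 peaks and 1 was a Rad21 peak.

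The flanks differed by side. On the 5′ side of the 4 clusters there were 5 control Ldb1, 1 Rad21 and 9 CTCF regions, and on the 3′ side 1, 0 and 2. Hoxb accounted for most of the 5′ side, with 4 control Ldb1, 1 Rad21 and 6 CTCF regions. The nearest protein-coding genes on the 5′ side were Evx1 (52.6 kb from Hoxa13), Ttll6 (28.1 kb from Hoxb13), Calcoco1 (199.0 kb from Hoxc13) and Evx2 (6.71 kb from Hoxd13). Evx1 and Evx2 are homeobox genes that arose from the same ancestral cluster, and Ttll6 encodes a tubulin-modifying enzyme. On the 3′ side they were Skap2 (142.8 kb), Skap1 (96.3 kb), Smug1 (116.4 kb) and Mtx2 (60.7 kb). The 5′ flank of Hoxc held no peak of any list. Next to Evx2, between it and Hoxd13, 2 CTCF regions started at 74661831 and 74663555 on chromosome 2. Their CTCF percentiles were 9.42 and 33.0 for the one nearer Evx2 and 18.5 and 55.6 for the other, with peaks of the second Rad21 library at 77.2 and 17.1.

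Of the 7 control Ldb1 regions in the windows, 6 lay in the flanks and 1 inside a cluster. Of 39 Hox genes, 0 had a Lhx2 KO Ldb1 region within 10 kb (1.53% of all protein-coding genes), 0 an Olfr1507 Ldb1 region (11.6%) and 2 a control Ldb1 region (39.6%). For Rad21 it was 17 of 39 (31.6% of all genes) and for CTCF 30 of 39 (56.5%). Neighbouring Hox genes share regions at this distance, so these counts are not independent. The control Ldb1 count was below its background and the Rad21 and CTCF counts above theirs. A region lay within the gene body at 1 gene for control Ldb1 (Hoxc6), 1 for Rad21 (the long Hoxd3) and 8 for CTCF. The 7 control Ldb1 regions of the windows lay at 4 places.

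The only Ldb1 region inside a cluster lay in Hoxc6, a gene of the thoracic segments, on chromosome 15 from 102999192 to 102999611. Its peaks stood at percentiles 57.6, 59.7 and 3.63 in the 3 control libraries. The second Olfr1507 library had a peak there at 17.3, and the first Olfr1507 and both Lhx2 KO libraries had none. It was a middle to low site in every list that held it, with no CTCF or Rad21 peak. The region nearest Evx1 (chromosome 6, 52322883 to 52323276) lay 4.49 kb from that gene. It stood at 71.1 and 94.9 in Olfr1507 cells and at 92.2, 93.8 and 92.1 in control neurons, with no Lhx2 KO peak. The region between Hoxd1 and Mtx2 (chromosome 2, 74803147 to 74803575) lay 22.2 kb from Mtx2, a mitochondrial outer membrane gene. It stood at 45.9 and 84.2 in Olfr1507 cells and at 91.3, 93.1 and 86.7 in control neurons, again with no Lhx2 KO peak. These 2 flank sites ranked high in all 3 control lists.

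The other 4 Ldb1 regions lay close together in the Calcoco2 and Ttll6 genes, on the 5′ side of Hoxb13. The first (chromosome 11, 96124293 to 96124732) stood at 68.2 in the first Lhx2 KO library, 68.7 in the second Olfr1507 library, and 63.3, 64.8 and 56.9 in control neurons. The second (96131049 to 96131451) stood at 68.2 in the first Lhx2 KO library, 73.3 and 95.4 in Olfr1507 cells, and 98.0, 97.9 and 95.3 in control neurons. It was the strongest Ldb1 site of the Hox windows in all 3 control lists. The third (96133282 to 96133896) stood at 92.1 in the first Lhx2 KO library, 79.0 in the second Olfr1507 library, and 80.8, 83.5 and 72.5 in control neurons. It was also a CTCF and Rad21 site, at 95.7 and 99.5 for Rad21 and 86.9 and 97.8 for CTCF, and the only 1 of the 7 Ldb1 regions of the windows to overlap either. Over the genome, 3.82% of control Ldb1 regions overlapped a Rad21 region and 4.52% a CTCF region. The fourth (96140722 to 96141149) had no Lhx2 KO peak and stood at 56.8 in the second Olfr1507 library and at 57.6, 66.5 and 41.7 in control neurons.

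Whether the Ldb1 sites of control neurons were present without Lhx2 was compared site by site. The first Lhx2 KO library had a peak at 3 of the 7 control Ldb1 regions, all in the Calcoco2 and Ttll6 group, against 12.7% of the 22789 control Ldb1 regions of the genome. The second Lhx2 KO library had a peak at 0 of 7, against 2.17%, and its whole list held 542 peaks. No Hox site was therefore a peak in both Lhx2 KO libraries. The first Olfr1507 library had a peak at 3 of 7, against 21.8%, and the second at 7 of 7, against 73.5%.

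The share of each list that lay in the Hox windows was compared over libraries. In Lhx2 KO neurons 3 of 4290 and 0 of 542 Ldb1 peaks lay in the windows (0.0699% and 0%). The exact 95% interval of that count of 0 reached up to 0.678%. In Olfr1507 cells the counts were 3 and 10 (0.0589% and 0.0471%), and in control neurons 8, 10 and 7 (0.0322%, 0.0346% and 0.0436%). For Rad21 they were 9 and 22 (0.0858% and 0.0781%) and for CTCF 31 and 36 (0.112% and 0.105%). The exact 95% (Clopper-Pearson) intervals, that of the count of 0 included, cover counting error only. They ran from 0.0139% to 0.0634% for the first control Ldb1 list and from 0.0763% to 0.159% for the first CTCF list.

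**Figure D4:**
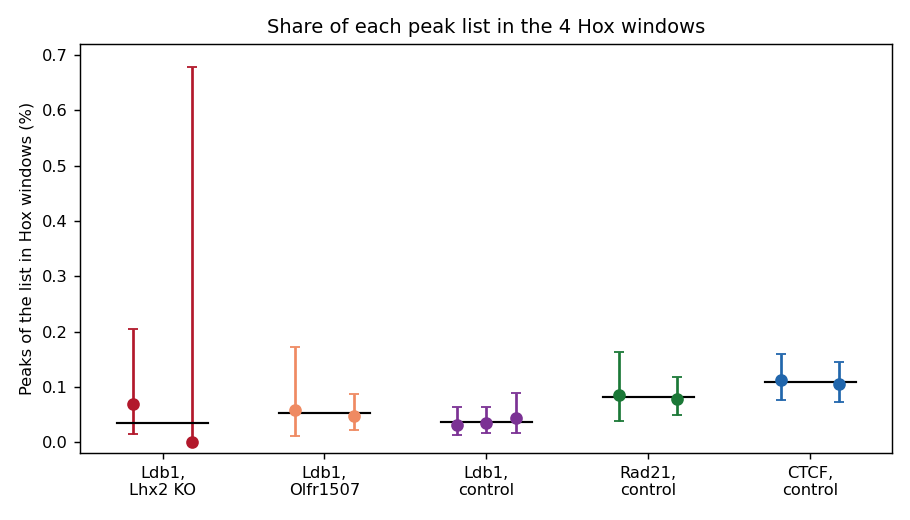
Points are the percentage of each list's peaks that lie in the 4 Hox windows, with exact 95% binomial intervals, and black lines are group means. CTCF and Rad21 libraries sit above all 3 control Ldb1 libraries, and the second Lhx2 KO list, at 0, has an interval that spans all other points.

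The mean share was 0.0820 ± 0.00542% for Rad21 and 0.109 ± 0.00498% for CTCF (SD, n = 2 each), a difference of -0.0268 percentage points. The 2 groups did not overlap. Without flanks they did, and the difference was -0.00714 points. In any setting 2 libraries against 2 allow no exact two-sided permutation p below 0.333, and with flanks p was 0.333 (0.444 after Benjamini-Hochberg adjustment over 4 comparisons). The mean for control Ldb1 was 0.0368 ± 0.00600% (SD, n = 3), against the same CTCF mean of 0.109%, a difference of -0.0720 points. These groups did not overlap either, and the exact permutation p was 0.1, the smallest that 3 libraries against 2 allow (adjusted p = 0.4). For Ldb1, Lhx2 KO neurons had 0.0350 ± 0.0494% (SD, n = 2) against the control 0.0368%, a difference of -0.00182 points (exact permutation p = 1.0). The groups overlapped, and this difference turned positive in several other settings given in the closing section. Olfr1507 cells had 0.0530 ± 0.00836% (SD, n = 2) against the same control, a difference of 0.0162 points with no overlap (exact permutation p = 0.2, adjusted p = 0.4). It was negative at -0.00337 points with the flanks left out. None of the 4 comparisons passed 0.05, and the design could not have done so. All comparisons but Rad21 minus CTCF use the same 3 control Ldb1 libraries, and so share their deviations. The same holds for the 2 CTCF libraries, which were set against both Rad21 and control Ldb1.

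Genes that work with or on Hox genes were looked up in lists of their own, counting those with a region within 10 kb against the shares of all genes given above. Hox cofactors, the TALE homeodomain proteins that bind DNA together with Hox proteins, had a control Ldb1 region at 8 of 9 genes, a Rad21 region at 5 and a CTCF region at 8. The strongest control Ldb1 regions had mean percentiles of 98.9 at Pknox2, 95.9 at Pbx3 and 94.7 at Pbx2. An Olfr1507 Ldb1 region lay at 5 of the 9 and a Lhx2 KO region at none. The share of cofactor genes with a control Ldb1 region was thus above that of all genes (39.6%), while 2 of the 39 Hox genes had one. Several cofactor genes are long, and gene length was not adjusted for. The ParaHox and Hox-linked homeobox genes had a control Ldb1 region at 4 of 13 genes, Evx1 (92.7), Mnx1 (89.4), Gbx1 (78.8) and Gbx2 (15.6), a Rad21 region at 1 and a CTCF region at 5.

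Polycomb genes, whose products silence Hox clusters, had a control Ldb1 region at 19 of 27 (39.6% of all genes), a Rad21 region at 12 (31.6%) and a CTCF region at 20 (56.5%). Strong Ldb1 regions stood at 98.4 for Pcgf5, 97.0 for Phc2 and 73.0 for Aebp2. Trithorax genes, which maintain Hox transcription, had a control Ldb1 region at 10 of 12, a Rad21 region at 5 and a CTCF region at 10, led by Kmt2a (89.2), Kmt2c (74.9), Ash1l (67.5) and Kmt2b (62.6). Genes of other homeobox clusters, the Dlx and Irx families among them, had a control Ldb1 region at 4 of 22, a Rad21 region at 8 and a CTCF region at 9, led for Ldb1 by Six2 (98.2), Six5 (86.6), Dlx1 (31.8) and Dlx6 (25.1). Against the same shares of all genes, the Rad21 counts of the Polycomb, trithorax and other homeobox lists lay above 31.6% by only a few genes. The control Ldb1 and CTCF counts lay above their backgrounds in the Polycomb and trithorax lists and below them in the other homeobox list. Gene length was not adjusted for in these lists either. The lists were chosen by hand, and these counts are not evidence about expression.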

How the data were processed

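Peak lists of 11 immunoprecipitation libraries were used, 1 list per library. The 3 input and 14 RNA samples were not analysed here, and 2 of the RNA samples have no group because their labels disagree. Dissociated cells were formaldehyde-fixed ahead of sorting and their chromatin was sonicated, per the labels' protocols. Per the submitters' processing notes, tools included cutadapt 1.9.1, Bowtie2 2.3.2, SAMtools 1.3.1 and HOMER 4.7 with build mm10. Peak caller, threshold and control library were not given in the sources used here. The score of each peak is a whole number as deposited by the authors, and its scale is unknown. It served only for ranks within a list.

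Peaks outside chromosomes 1 to 19, X and Y were dropped. Peaks overlapping by at least 1 base were linked, and a region needed 2 libraries of a group. Library shares were compared by exact two-sided permutation, adjusted (Benjamini-Hochberg) over 4 comparisons (Python 3.11.15, scipy 1.17.1), after a trial on simulated data. Hox strands came from the RefSeq promoter table. The rule for naming took every Hox gene, every interval with a CTCF or Rad21 region, every Ldb1 region in a window, and up to 4 genes per list by control Ldb1 percentile. Of these, 3 genes are not reported here by name, and Hox genes with no site of their own are given only in counts. The genes, lists and alternatives were chosen with earlier results of these data known. Intervals under 20 kb and the shortened motif were added after seeing the data.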

Additional observations from a re-analysis of the deposited data

How the results depend on the processing

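Counts of regions in the Hox windows moved mainly with the width of the flank and the length of the lists. Without flanks there were 1 control Ldb1 and 20 CTCF regions, against 7 and 31 with 100 kb. A flank of 200 kb gave 19 control Ldb1, 16 Rad21 (9 with 100 kb) and 51 CTCF regions, and a flank of 50 kb gave 2 control Ldb1 regions. With peaks of any library there were 11 control Ldb1 and 22 Rad21 regions, and with the top-scoring 50% of each list there were 11 CTCF regions. Leaving out 1 library gave 7 control Ldb1 regions each time. Rad21 and CTCF then had only 1 library left, and its peaks were counted without the need for 2 libraries. They numbered 9 to 22 for Rad21 (22 without the first, shorter library) and 31 to 36 for CTCF.

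The control Ldb1 minus CTCF and Rad21 minus CTCF differences kept their sign in all 10 and 9 alternatives. The Rad21 minus CTCF difference of -0.0268 shrank to -0.00714 without flanks, -0.00716 with the top-scoring 50% and -0.00954 with lists at equal length, and in these 3 settings the groups overlapped (exact permutation p = 1.0, 0.667 and 1.0). The Lhx2 KO minus control difference of -0.00182 points was 0.0120 with the top-scoring 50%, 0.0308 with lists at equal length, and -0.0368 to 0.0331 with 1 library left out. It was 0.0331 without the second Lhx2 KO library, which has no peak in the windows, and 0.00157 without the third control library. The Olfr1507 minus control difference of 0.0162 was -0.00337 without flanks and -0.00981 with lists at equal length. The cause was not tested.

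In a paired comparison, with the replicate number as a block, the Lhx2 KO difference was 0.00157, and no comparison passed 0.05. None could have done so, since an exact sign-flip test over 2 pairs allows no p below 0.5. Peak numbers per 1-Mb bin of same-numbered Rad21 and CTCF libraries deviated together, with the same r of 0.228 for either replicate number. In the other comparisons r ran from -0.219 to 0.253, both for Olfr1507 cells against control. So few pairs, 2 per comparison, cannot show that the numbers pair libraries. Read depth is unknown, so a site without a peak may still be bound.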

Other observations

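Of the 6 microRNA genes inside the Hox clusters, none overlapped a peak of any list. These genes are very short, and the share over all microRNA genes was not counted. The count therefore shows nothing particular to Hox clusters. Mir615, in Hoxc, lay 1.05 kb from the nearest peak, a Rad21 peak at the CTCF region between Hoxc6 and Hoxc5. Mir196a-1 lay 3.26 kb, Mir196a-2 6.60 kb and Mir196b 8.07 kb from the nearest CTCF peak. The microRNAs of the mir-10 family lay farther off. Mir10b lay 9.96 kb from a Rad21 peak at the CTCF region between Hoxd8 and Hoxd4. Mir10a lay 13.8 kb from a CTCF peak.

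In the windows, peaks above percentile 90 of their list numbered 1 of 3 in the first Lhx2 KO list, 0 of 3 and 2 of 10 in the Olfr1507 lists, and 3 of 8, 3 of 10 and 2 of 7 in the control Ldb1 lists. For Rad21 they were 2 of 9 and 4 of 22, and for CTCF 1 of 31 and 2 of 36. The median percentile of window peaks was 68.2 in the first Lhx2 KO list, 71.1 and 62.7 in the Olfr1507 lists, 72.1, 65.6 and 72.5 in the control Ldb1 lists, 78.3 and 62.9 in the Rad21 lists, and 38.2 and 59.8 in the CTCF lists. These ranks are descriptions of single lists and were not tested.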
